A study of Homo sapiens with 16 samples.

Results

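The genes described here are those of the SR proteins and the hnRNPs, the 2 large families of proteins that bind pre-mRNA and steer splice site choice, measured in A375 xenograft tumors after both drugs (J+V), JQ1 alone (J), Vemurafenib alone (V) or vehicle (Control). Members were taken by symbol, as every row named SRSF and a number or HNRNP followed by a letter, and 35 of the 23260 rows of the deposited table matched: 12 SR protein genes and 23 hnRNP genes. Of these, 32 passed a filter on low values (12 SR and 20 hnRNP genes). The other 3 were the copies HNRNPA3P1 and HNRNPKP3, with at most 0.261 and 0.122 FPKM (fragments per kilobase of transcript, scaled to the fragments mapped in each library) in any tumor, and HNRNPCL1, at or near 0 in all 16 tumors.

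A375 is a human melanoma cell line with mutant BRAF, and its cells had been injected into both flanks of NOG mice (NOD/Scid/IL2γR-/-). The 4 groups were J+V, mice given both drugs; J, given the BET bromodomain inhibitor JQ1 at 50 mg/kg daily; V, given Vemurafenib, which inhibits mutant BRAF, in 2 daily doses of 25 mg/kg; and Control, given a vehicle of DMSO and cyclodextrin, all by the intraperitoneal route. Tumors were taken on day 5, as 4 tumors per group from 2 mice each, left (L) and right (R) flank, so that p-values treat tumors of the same animal as replicates. Every tumor comes from 1 cell line in immunodeficient hosts, and RNA was total RNA depleted of ribosomal RNA. Values below are given in the order 33L, 33R, 34L and 34R for J+V, 26L, 26R, 29L and 29R for J, 16L, 16R, 19L and 19R for V, and 2L, 2R, 5L and 5R for Control, where the number is the mouse.

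SR proteins carry RNA recognition motifs and a tail rich in arginine and serine, and typically bind exonic enhancers and favor the use of the exon they bind. Members of the hnRNP family coat nascent transcripts, and several of them, HNRNPA1 in particular, favor exon skipping and oppose SR proteins at shared sites. Many SR and hnRNP genes hold poison exons through which their own proteins lower their mRNA by nonsense-mediated decay, which values summed over a whole gene do not resolve.

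J+V tumors held less RNA of the hnRNP family than Control tumors, while the SR sums of J+V and Control tumors overlapped. Summed over its 12 members, the SR family reached 877.1 ± 47.95 FPKM in J+V tumors, against 1015 ± 63.72 FPKM in Control tumors (SD, n = 4 each), and the J+V range of 813.1 to 925.5 overlapped the Control range of 920.5 to 1058. The SR sum was 1012 ± 38.31 FPKM in J tumors (965.2 to 1048), all above the J+V tumors, and 932.0 ± 53.2 FPKM in V tumors (890.2 to 1010), which overlapped J+V. The hnRNP sum was 2201 ± 119.7 FPKM in J+V tumors and 2780 ± 79.2 FPKM in Control tumors, and here all 4 J+V tumors (2037 to 2301) lay below all 4 Control tumors (2700 to 2875). With 1 drug the hnRNP sum was 2578 ± 54.63 FPKM in J tumors (2531 to 2646) and 2456 ± 140.4 FPKM in V tumors (2290 to 2619), also below every Control tumor, and the V range reached into that of J+V. The hnRNP sum includes the pseudogene HNRNPA1P10, whose level is uncertain as described below. HNRNPA1P10 averaged 29.9 FPKM in J+V, 37.21 in J, 62.4 in V and 104.8 in Control tumors. A sum without it was not computed.

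In limma with an adjusted p below 0.05 as the threshold, J+V against Control gave 6 of 12 SR genes lower and 1 higher, and 11 of 20 hnRNP genes lower (55.0%) and 1 higher. Over all 13426 genes tested, 37.1% passed in either direction, 20.5% lower and 16.6% higher. The median log2 fold change was -0.139 over SR genes and -0.303 over hnRNP genes, and -0.025 over all genes. The J+V tumors were all below the Control tumors for 4 SR and 10 hnRNP genes, as for 16.4% of all genes, and all above them for 1 hnRNP gene, as for 12.9% of all genes. With every tumor scaled to the same FPKM sum (TPM), the median of all genes moved to -0.222, that of SR genes to -0.356 and that of hnRNP genes to -0.521, with 6 SR and 13 hnRNP genes lower and 0 higher. Under TPM the counts over all 13426 genes moved too, to 4727 lower and 816 higher. Quantile normalization left SR genes at a median of -0.004 with 3 lower and 3 higher, and hnRNP genes at -0.143 with 9 lower and 1 higher, so the SR median depended on the scaling. Counts over all genes after quantile normalization are not given here, so these member counts are not set against them. At the thresholds the study used, an FDR below 0.1, a p below 0.01 and a change of more than 2-fold, HNRNPA1P10 alone passed, beside 3.83% of all genes.

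**Figure D1:**
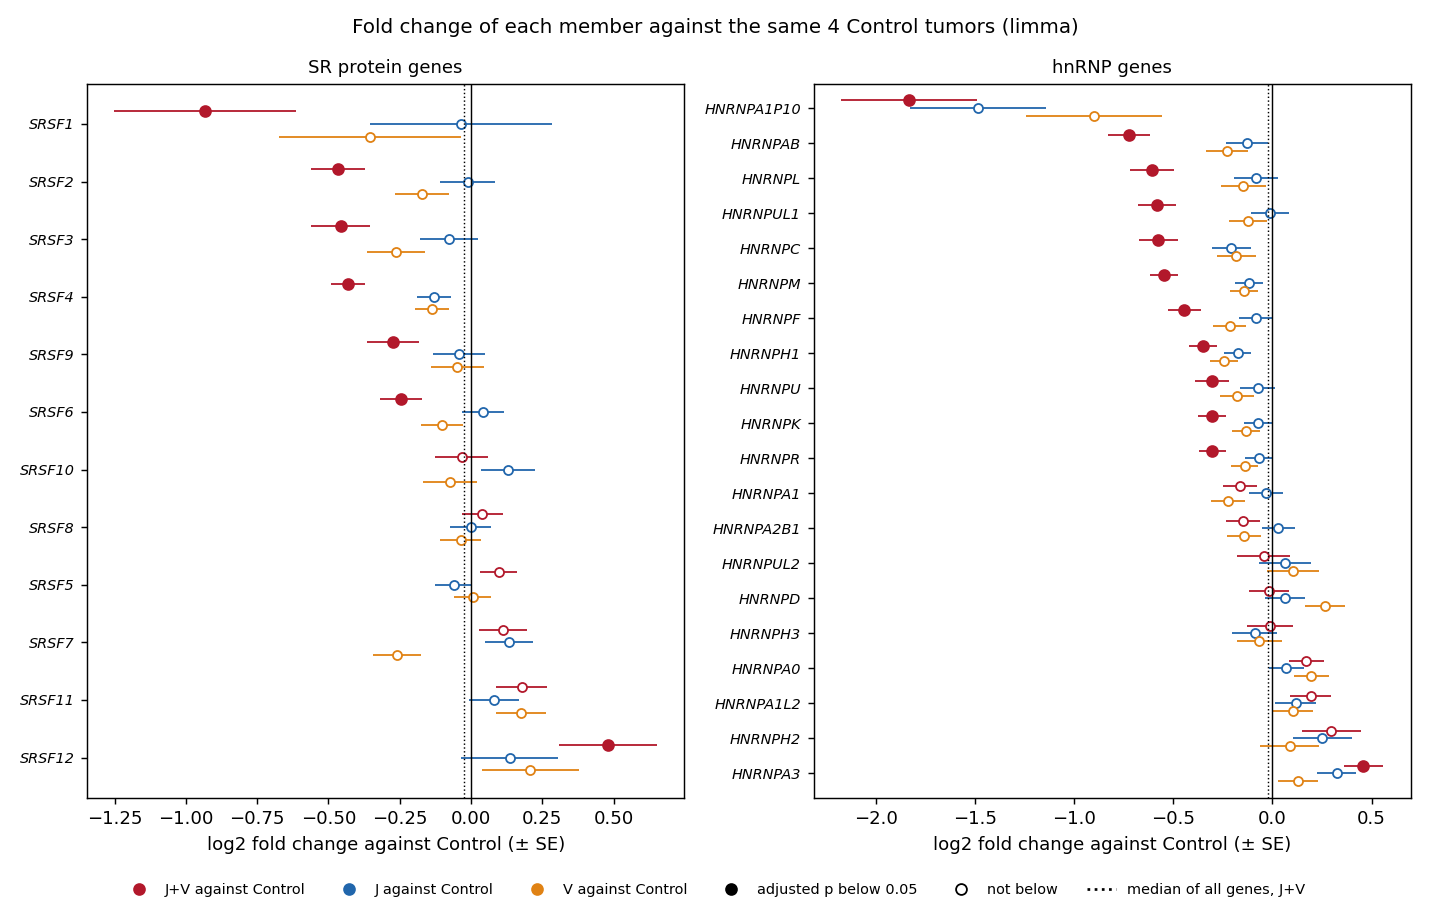
Log2 fold change of each SR gene (left) and hnRNP gene (right) in J+V, J and V against the same 4 Control tumors, with SE as bars; filled points have an adjusted p below 0.05 in limma and the dotted line is the J+V median of all genes. Filled points occur in J+V only, 6 SR and 11 hnRNP genes to the left of 0 and 1 of each family to the right.

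Some facts of the whole series bear on these values. The share of summed FPKM in small noncoding RNAs was 57.8% to 64.5% in J+V tumors and 47.5% to 57.9% in Control tumors, and their part in the differences was not tested beyond the scalings. All 6 proliferation markers were measured, and their summed FPKM was 110.8 to 230.7 in J+V tumors, 339.5 to 386.3 in J tumors, 289.5 to 371.4 in V tumors and 317.0 to 493.6 in Control tumors. In J+V tumors this sum lay below all Control tumors, as the hnRNP sum did. In J and V tumors it overlapped Control tumors, while the hnRNP sum did not. The part of proliferation in the difference of the splicing factors was not tested. Of 12 melanoma markers 9 passed the filter, SOX10 among them, and DCT was under 0.1 FPKM in every tumor. The summed melanoma markers were 235.4 to 370.9 FPKM in J+V tumors and 188.0 to 283.3 FPKM in Control tumors. The markers that passed the filter went in both directions. S100B averaged 54.6 FPKM in J+V and 16.65 FPKM in Control tumors, and MIA, S100A1, SOX10, MITF and MLANA were also higher in J+V. AXL averaged 6.53 FPKM in J+V and 19.35 FPKM in Control tumors, and SOX9 and NGFR were also lower in J+V. The hosts were mice, reads were mapped to the human genome, and the treatment of mouse reads is not stated. Markers of other cell types are therefore not a direct measure of host cells here. Summed lists of such markers overlapped between J+V and Control tumors. The fibroblast list, of which all 6 passed, had 62.4 to 114.9 FPKM in J+V and 36.2 to 121.4 FPKM in Control tumors. In the same order, the leukocyte list had 23.5 to 27.4 and 20.1 to 26.2 FPKM (3 of 6 passed). The endothelial list had 3.95 to 5.71 and 4.27 to 7.18 FPKM (1 of 6, CDH5 under 0.1). The erythroid list had 0.487 to 3.68 and 1.55 to 4.64 FPKM (1 of 4, HBA1 and HBA2 under 0.1). Within the fibroblast list, DCN averaged 12.9 FPKM in J+V and 4.47 FPKM in Control tumors, and LUM 13.02 FPKM in J+V and 4.17 FPKM in Control tumors. The summed leukocyte list was 27.93 to 30.65 FPKM in J tumors, above all J+V and Control tumors. Most of this sum was CD68, at a mean of 25.4 FPKM in J and 18.97 FPKM in Control tumors. CSF1R and AIF1 were also higher in J than in Control tumors, while PTPRC (0.148 and 0.170 FPKM), CD14 and LYZ were lower. Erythroid sums were 0.5002 to 1.46 FPKM in J tumors, below all Control tumors. Fibroblast sums were 57.3 to 74.1 FPKM in J and 55.5 to 112 FPKM in V tumors. The part of these markers in the differences was not tested. In such bulk samples, fewer cells of a type and less RNA per cell cannot be told apart.

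Among the SR proteins, SRSF4 was the most even. SRSF4 measured 25.4, 24.0, 25.4 and 24.2 FPKM in J+V tumors, 30.7, 31.8, 29.5 and 30.5 in J tumors and 30.7, 29.1, 30.1 and 31.9 in V tumors, against 36.1, 35.3, 30.5 and 32.4 in Control tumors. All 4 J+V tumors lay below the other 12, and the log2 fold change against Control was -0.43 (SE 0.0602, adjusted p = 0.000149 in limma). Its spread within groups, 0.0684 on the log2 scale, was at the 0.9 percentile of all genes, for which the median was 0.197. SRSF6, a close relative of SRSF4, differed less. SRSF6 measured 89.6, 90.0, 103 and 106 FPKM in J+V tumors, 121, 115, 118 and 119 in J tumors and 100.4, 99.1, 109 and 121 in V tumors, against 118, 117, 116 and 108 in Control tumors. Its J+V tumors lay just below the Control tumors (log2 fold change -0.24, SE 0.0744, adjusted p = 0.0185).

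SRSF2, which marks nuclear speckles and binds exonic enhancers, measured 56.4, 59.1, 67.8 and 69.7 FPKM in J+V tumors, 79.4, 93.6, 88.1 and 85.7 in J tumors and 72.0, 71.3, 75.7 and 92.3 in V tumors, against 78.3, 97.6, 87.0 and 87.3 in Control tumors. Every J+V tumor was the lower, and SRSF2 fell by 0.47 on the log2 scale (SE 0.0957, adjusted p = 0.00188). SRSF2 shares 1469 bases with MFSD11 on the opposite strand, and the sources used here do not say whether reads were counted by strand. Shared bases, here and below, are of whole gene spans with introns, so they are not a measure of shared exons. Opposite-strand overlaps were also found for HNRNPU with COX20 (4420 bases), HNRNPA2B1 with NFE2L3 (15987) and CBX3 (368), and HNRNPH3 with RUFY2 (2087) and PBLD (1876).

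SRSF3, the smallest SR protein and an adaptor of mRNA export, measured 122, 105, 139.5 and 147 FPKM in J+V tumors, 168, 163, 176 and 157 in J tumors and 155, 137, 129 and 163 in V tumors, against 163, 189.6, 185 and 164 in Control tumors. The J+V tumors lay below all Control tumors and all J tumors, while V tumors reached into both ranges. Against Control, SRSF3 fell by 0.46 (SE 0.102, adjusted p = 0.00325). SRSF7, its close relative with a zinc knuckle, followed another order. SRSF7 measured 88.7, 82.0, 89.8 and 106 FPKM in J+V tumors, 95.2, 91.3, 98.8 and 85.1 in J tumors and 72.9, 67.6, 65.8 and 75.8 in V tumors, against 79.5, 88.1, 93.8 and 76.9 in Control tumors. All 4 V tumors were below every other tumor for SRSF7, and J+V and Control tumors overlapped (log2 fold change 0.11, SE 0.0843, adjusted p = 0.312). J+V was higher than V by 0.37 (SE 0.0843, adjusted p = 0.0117), a call that was lost without mouse 34 (adjusted p = 0.059), without mouse 19 (0.0668) and under TPM (0.298).

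The promoters of SRSF3 and SRSF7, and of HNRNPAB and HNRNPA3, are shown because their log2 fold changes had opposite signs in J+V against Control, although SRSF7 did not pass the test. RefSeq promoter windows (GRCh38.p14, 250 bases before to 50 after a gene's start) were matched for 30 of the 35 members, in 43 windows. Capitals mark exact matches on either strand to CCAAT (the CCAAT box), TATAAA (the TATA box), CACGTG (the E-box bound by MYC and its relatives), TTCGCGC or TTGGCGC (E2F) and CCGGAAG (ETS), and the matches in the windows shown do not overlap each other.
SRSF3, chr6:36594112-36594411, plus strand: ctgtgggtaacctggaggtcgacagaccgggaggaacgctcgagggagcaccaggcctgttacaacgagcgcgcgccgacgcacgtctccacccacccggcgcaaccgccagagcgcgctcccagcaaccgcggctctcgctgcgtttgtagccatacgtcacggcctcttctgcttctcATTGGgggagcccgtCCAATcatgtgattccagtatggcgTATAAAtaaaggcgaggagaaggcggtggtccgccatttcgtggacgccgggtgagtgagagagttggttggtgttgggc
SRSF7, chr2:38751312-38751611, minus strand: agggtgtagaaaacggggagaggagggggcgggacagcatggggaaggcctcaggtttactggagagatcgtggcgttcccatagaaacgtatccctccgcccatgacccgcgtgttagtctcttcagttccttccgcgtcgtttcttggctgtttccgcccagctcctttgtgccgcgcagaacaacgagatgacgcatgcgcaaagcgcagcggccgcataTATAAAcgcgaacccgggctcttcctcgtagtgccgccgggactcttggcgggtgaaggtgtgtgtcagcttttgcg
HNRNPAB, chr5:178204283-178204582, plus strand: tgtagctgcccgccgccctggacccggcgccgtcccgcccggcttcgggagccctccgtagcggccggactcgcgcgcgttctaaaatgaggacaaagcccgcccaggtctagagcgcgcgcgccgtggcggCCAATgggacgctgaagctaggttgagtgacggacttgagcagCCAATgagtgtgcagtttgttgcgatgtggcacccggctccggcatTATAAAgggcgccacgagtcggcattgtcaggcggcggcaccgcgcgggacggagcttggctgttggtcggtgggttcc
HNRNPA3, chr2:177212544-177212843, plus strand: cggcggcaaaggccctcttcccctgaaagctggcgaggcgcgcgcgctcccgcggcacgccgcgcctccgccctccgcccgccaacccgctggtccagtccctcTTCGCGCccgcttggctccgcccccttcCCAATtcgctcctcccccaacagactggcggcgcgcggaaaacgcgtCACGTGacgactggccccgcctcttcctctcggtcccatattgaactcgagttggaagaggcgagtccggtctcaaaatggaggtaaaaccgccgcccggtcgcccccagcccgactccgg
SRSF3 and HNRNPAB, both lower in J+V, each hold 2 CCAAT matches and a TATA match, at -30 from the start in SRSF3. SRSF7 holds a TATA match at -27 and no CCAAT in this window, and HNRNPA3, the hnRNP that was higher, holds an E-box match at -71, an E2F match at -146 and CCAAT at -118. CCAAT occurred in 48.8% of member windows and 34.6% of all 35116 windows, the E-box in 14.0% and 7.26%, E2F letters in 9.3% and 5.06%, TATAAA in 14.0% and 11.5%, and the ETS letters in 9.3% and 10.3%. Counted per gene, CCAAT was found in 10 of 15 members that were lower and in 6 of 12 that did not pass the test. It was found in 1 of 2 members that were higher, in 18 of all 30 matched members and in 39.7% of all 27305 genes with a window. The E-box was found in 2 of the 15 lower members (HNRNPM and HNRNPUL1), 1 of the 2 higher and 3 of the 12 others (8.77% of all genes). In the same order, E2F letters were found in 2 (HNRNPK and SRSF9), 1 and 1 (6.1% of all genes). TATAAA was found in 3, 0 and 3 (14.0%), and the ETS letters in 2, 0 and 2 (12.2%). Genes with several windows have more chances of a match, and the difference between these shares was not tested.

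SRSF1, the founding SR protein and a known oncogene, varied most. SRSF1 measured 71.9, 34.1, 56.6 and 41.7 FPKM in J+V tumors, 127, 92.3, 87.1 and 69.2 in J tumors and 42.0, 78.6, 86.8 and 102 in V tumors, against 142, 113, 97.1 and 50.4 in Control tumors. Control tumor 5R, J tumor 29R and V tumor 16L lay inside the J+V range. The log2 fold change was the largest of the family at -0.93, but with an SE of 0.319 (adjusted p = 0.0329), and the spread within groups of 0.516 was at the 95.4 percentile of all genes. Leaving out 1 tumor ended the call for 33R (adjusted p = 0.0906), 34R (0.076), 2L (0.0884), 2R (0.08) and 5L (0.126). Leaving out mouse 33 (0.0868), 34 (0.0963) or 2 (0.256) ended it too. SRSF1 also had no call after quantile normalization (0.061), scaled without small RNAs (0.0541), with no filter (0.0542) and with only the groups compared (0.055). With means per mouse the calls on SRSF1 (0.0781), SRSF6 (0.121), SRSF9 (0.0774) and SRSF12 (0.0791) were all lost. SRSF9, the closest relative of SRSF1, measured 69.4, 80.0, 75.3 and 84.8 FPKM in J+V tumors, 84.0, 90.5, 96.9 and 91.9 in J tumors and 92.5, 84.6, 84.3 and 101 in V tumors, against 84.4, 88.6, 90.1 and 113 in Control tumors. The J+V and Control ranges overlapped through tumors 34R and 2L, and SRSF9 fell by 0.27 (SE 0.092, adjusted p = 0.0301). This call was lost without tumor 33L (0.0895), 34L (0.0508), 5L (0.0683) or 5R (0.0847), and without mouse 33 (0.161) or 5 (0.189). It was also lost after quantile normalization (0.178), under upper quartile scaling (0.051), scaled without small RNAs (0.0511) and with only the groups compared (0.0815). By gene span, introns included, SRSF9 shares 26097 bases with DYNLL1 and 2078 with GATC on the opposite strand.

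SRSF12, a relative of SRSF10, was the 1 SR gene that was higher. SRSF12 measured 2.46, 2.25, 1.92 and 2.41 FPKM in J+V tumors, 1.85, 2.09, 1.48 and 1.33 in J tumors and 1.66, 1.68, 2.37 and 1.49 in V tumors, against 2.20, 1.26, 1.66 and 0.966 in Control tumors. The lowest level of the family belonged to this gene, Control tumor 2L overlapped the J+V range, and SRSF12 rose by 0.48 (SE 0.171, adjusted p = 0.0388), with no call under TPM (adjusted p = 0.224). It also lost the call without 33L (0.0827), 33R (0.0651), 34R (0.0785), 16R (0.0534), 2R (0.0717), 5L (0.0777) or 5R (0.119). Leaving out mouse 33 (0.166), 34 (0.0695), 16 (0.0502) or 5 (0.195) ended it as well. So did no filter (0.0597), quantile normalization (0.0738) and only the groups compared (0.0756). The call on SRSF6 was lost without 33L (0.0638), 33R (0.0618) or 5L (0.0666), and without mouse 33 (0.24) or mouse 2 (0.0994). SRSF6 also had no call after quantile normalization (0.238), scaled without small RNAs (0.0805) and with only the groups compared (0.0526). The other SR genes did not pass the test in J+V against Control: SRSF5 at 0.10, SRSF8 at 0.04, SRSF10 at -0.03 and SRSF11 at 0.18, with mean levels in J+V tumors between 12.4 FPKM (SRSF8) and 130.5 FPKM (SRSF5). The signs of SRSF5, SRSF7, SRSF8 and SRSF11 turned under TPM and that of SRSF10 under the 3 other scalings.

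**Figure D2:**
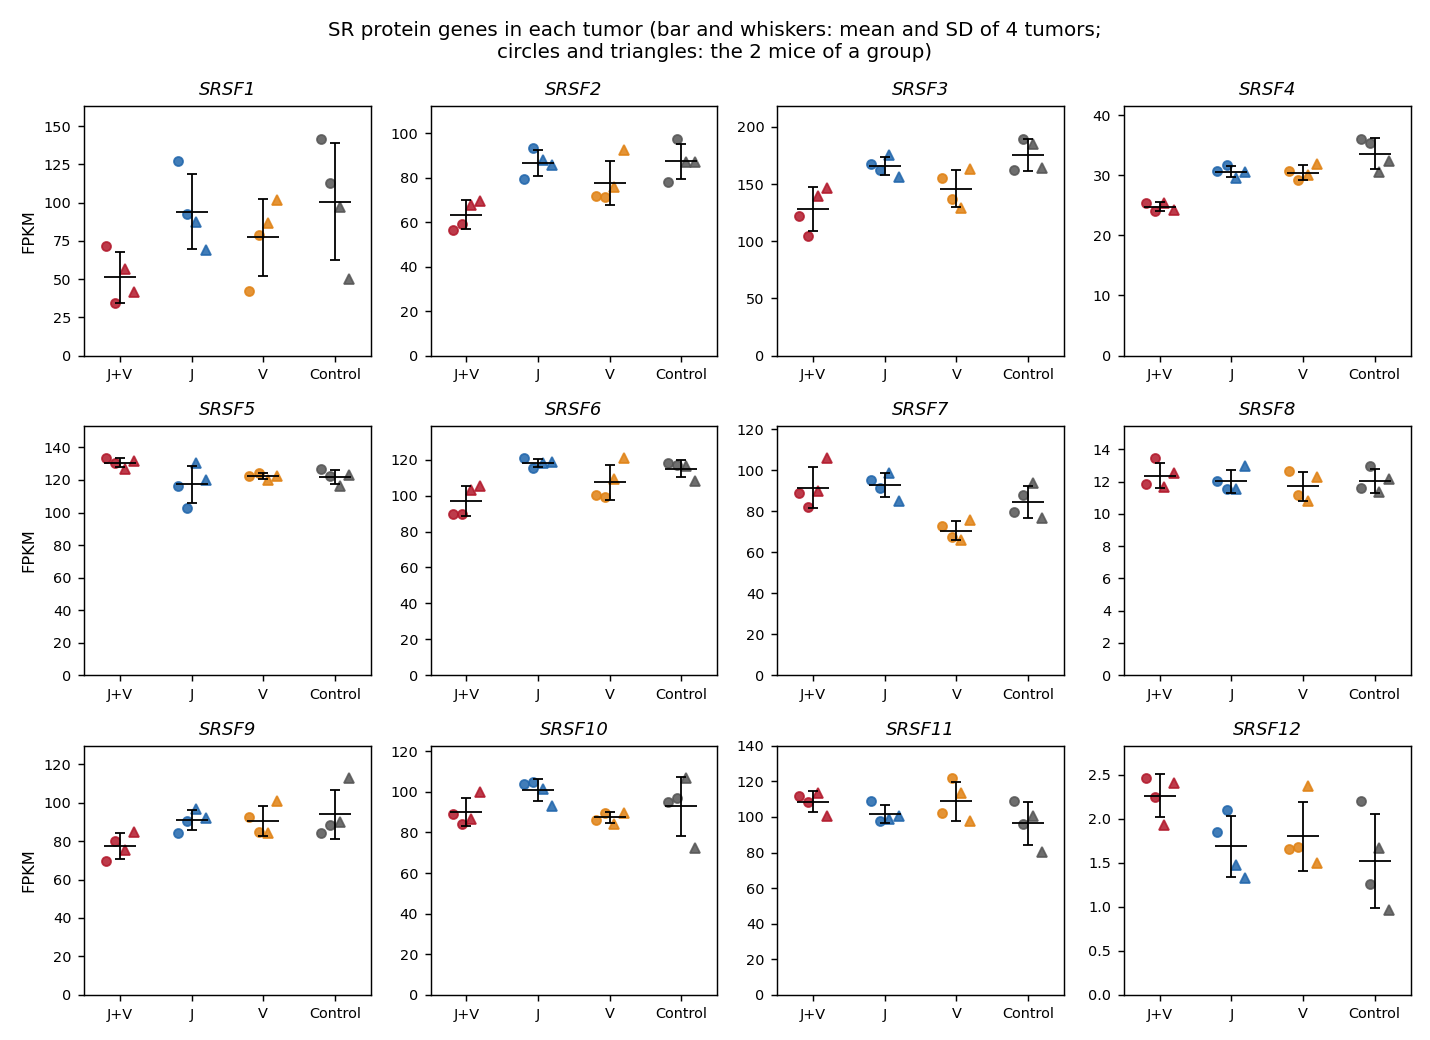
FPKM of the 12 SR protein genes in each of the 16 tumors, by group, with circles and triangles for the 2 mice of a group and the mean and SD of 4 tumors. J+V tumors lie below all Control tumors for SRSF2, SRSF3, SRSF4 and SRSF6, SRSF1 is spread in every group, and V tumors are the lowest for SRSF7.

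Among the hnRNPs, HNRNPM, which binds sites rich in G and U, had the smallest p. HNRNPM measured 47.7, 43.4, 55.0 and 46.2 FPKM in J+V tumors, 62.3, 65.6, 69.4 and 61.5 in J tumors and 63.1, 61.1, 60.9 and 69.1 in V tumors, against 68.2, 68.6, 69.2 and 75.0 in Control tumors. The 4 J+V tumors were the lowest of the 16, and HNRNPM fell by 0.55 (SE 0.0723, adjusted p = 0.000101). HNRNPAB, a relative of HNRNPD, measured 37.8, 33.0, 41.8 and 36.2 FPKM in J+V tumors, 59.3, 54.8, 55.6 and 55.9 in J tumors and 47.7, 43.5, 54.2 and 67.4 in V tumors, against 59.9, 61.4, 60.2 and 65.0 in Control tumors. It too was lowest in J+V and fell by 0.72 (SE 0.106, adjusted p = 0.000205), to 0.606 of the Control level. HNRNPD itself, which binds AU-rich elements and is known from mRNA decay, stood at a log2 fold change of -0.02 (SE 0.101, adjusted p = 0.904) and changed sign under 3 scalings.

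HNRNPL, which binds CA repeats, measured 59.2, 64.2, 64.4 and 60.6 FPKM in J+V tumors, 78.5, 92.5, 94.5 and 94.2 in J tumors and 98.2, 70.8, 80.4 and 96.4 in V tumors, against 83.2, 88.2, 94.7 and 117 in Control tumors. HNRNPUL1, a relative of HNRNPU, measured 37.4, 36.8, 41.2 and 35.9 FPKM in J+V tumors, 55.4, 58.6, 54.9 and 56.1 in J tumors and 56.3, 45.6, 47.3 and 60.4 in V tumors, against 52.3, 63.1, 48.5 and 64.7 in Control tumors. HNRNPC, which binds uridine tracts of nascent RNA, measured 214, 169, 211 and 228 FPKM in J+V tumors, 281, 259, 271 and 245 in J tumors and 263, 253, 242 and 321 in V tumors, against 301, 328, 301 and 290.0 in Control tumors. For all 3 genes the J+V tumors were below the other 12. HNRNPL fell by 0.61 (SE 0.112, adjusted p = 0.000915), HNRNPUL1 by 0.58 (SE 0.0975, adjusted p = 0.000513) and HNRNPC by 0.58 (SE 0.0984, adjusted p = 0.000587). HNRNPUL1 shares 6201 bases with TGFB1 on the opposite strand.

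Of the members that bind runs of G, HNRNPF and HNRNPH1 fell, and HNRNPH2 and HNRNPH3 did not pass the test. HNRNPF measured 80.1, 70.003, 80.4 and 83.3 FPKM in J+V tumors, 101, 103, 103 and 95.7 in J tumors and 97.3, 86.3, 80.0 and 106 in V tumors, against 96.6, 113, 109.5 and 108 in Control tumors. HNRNPH1 measured 241, 232, 263 and 259.7 FPKM in J+V tumors, 282, 283, 283 and 274 in J tumors and 252, 277, 255 and 289 in V tumors, against 308, 339.8, 330.0 and 293 in Control tumors. J+V tumors lay below all Control tumors for both, with log2 fold changes of -0.44 for HNRNPF (SE 0.0828, adjusted p = 0.00101) and -0.35 for HNRNPH1 (SE 0.0693, adjusted p = 0.00147). HNRNPH2 stood at 0.30 (SE 0.149, adjusted p = 0.131) and HNRNPH3 at -0.01 (SE 0.114, adjusted p = 0.94), and the sign of HNRNPH3 turned under 3 scalings.

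HNRNPR, a relative of SYNCRIP, measured 146, 135, 151 and 148 FPKM in J+V tumors, 172, 165, 179 and 168 in J tumors and 165, 161, 153 and 170.2 in V tumors, against 184, 186, 193 and 155 in Control tumors. It fell by 0.30 (SE 0.0702, adjusted p = 0.00407), with Control tumor 5R only just above the J+V tumors and no call after quantile normalization (adjusted p = 0.201). HNRNPK, which binds poly-C, averaged 275.1 ± 17.80 FPKM in J+V tumors and 339.4 ± 16.14 FPKM in Control tumors (SD, n = 4 each; log2 fold change -0.30, adjusted p = 0.00409). HNRNPU, a nuclear scaffold protein that binds chromatin-associated RNA, averaged 162.5 ± 10.91 FPKM in J+V tumors and 201.3 ± 20.02 FPKM in Control tumors, with overlapping ranges (log2 fold change -0.30, adjusted p = 0.0141). The call was lost for HNRNPK without mouse 33 (adjusted p = 0.0527), and for HNRNPU without mouse 33 (0.133), without mouse 2 (0.105) or without tumor 5L alone (0.0731). HNRNPU also lost it after quantile normalization, at -0.10 (adjusted p = 0.414), scaled without small RNAs (0.0728) and with means per mouse (0.0783).

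The member with the highest FPKM did not pass the test. This was HNRNPA1, the exon-skipping factor that opposes SRSF1. It measured 482, 449, 449 and 504 FPKM in J+V tumors, 518, 497, 519.5 and 533 in J tumors and 535, 446, 409 and 429 in V tumors, against 499.9, 509, 523 and 583 in Control tumors. HNRNPA2B1, its relative, measured 225, 224, 247 and 247 FPKM in J+V tumors, 284, 264, 267 and 251 in J tumors and 219, 256, 230.3 and 241 in V tumors, against 279, 274, 278 and 218 in Control tumors. J+V and Control tumors overlapped for both genes, while all J+V tumors lay below all J tumors for HNRNPA2B1 (adjusted p = 0.127 in J+V against J). The log2 fold changes were -0.17 for HNRNPA1 (SE 0.086, adjusted p = 0.143) and -0.15 for HNRNPA2B1 (SE 0.0836, adjusted p = 0.174). For HNRNPA2B1 the low Control tumor 5R mattered, since without it the adjusted p was 0.0166. Under TPM both genes passed, at 0.0185 for HNRNPA1 and 0.0426 for HNRNPA2B1.

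HNRNPA3, of the same A/B group, was the 1 hnRNP gene that was higher. HNRNPA3 measured 29.0, 33.1, 31.3 and 30.5 FPKM in J+V tumors, 28.9, 26.7, 28.2 and 28.7 in J tumors and 19.9, 26.0, 31.1 and 22.4 in V tumors, against 23.3, 21.5, 23.8 and 21.0 in Control tumors. All J+V and all J tumors lay above all Control tumors. HNRNPA3 rose by 0.46 in J+V (SE 0.1003, adjusted p = 0.00281) and lost the call under TPM (adjusted p = 0.202). It shares 5293 bases with NFE2L2 on the opposite strand. The level was not called in J alone, at 0.32 (SE 0.1003, adjusted p = 0.351). The rest of the family, HNRNPA0 at 0.17, HNRNPA1L2 at 0.19 and HNRNPUL2 at -0.04, did not pass.

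The largest difference belonged to HNRNPA1P10, a processed pseudogene at chr19:11776884-11777845 (GRCh37, minus strand) that is nearly a copy of the HNRNPA1 mRNA. HNRNPA1P10 measured 24.5, 20.3, 45.0 and 29.8 FPKM in J+V tumors, 36.0, 36.7, 48.2 and 28.0 in J tumors and 75.8, 67.2, 21.0 and 85.6 in V tumors, against 88.6, 135, 104 and 91.5 in Control tumors. All 12 treated tumors were below the 4 Control tumors, and J+V differed from Control by -1.84 (SE 0.344, adjusted p = 0.00105), while J stood at -1.49 (adjusted p = 0.209) and V at -0.90 (adjusted p = 0.227). Aligned over 963 positions, the copy and HNRNPA1 had 958 identical bases (99.5%). The stretch of 60 bases shown here, from chr19:11777658-11777717 of the copy and from base 129 of the HNRNPA1 coding sequence on chromosome 12, holds 1 difference, in capitals, and shows how little separates reads of the 2 loci.
HNRNPA1P10: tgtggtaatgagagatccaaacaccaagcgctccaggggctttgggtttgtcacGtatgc
HNRNPA1: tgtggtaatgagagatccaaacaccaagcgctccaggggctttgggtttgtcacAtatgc
Fragments can therefore be split between these loci in an uncertain way, and the value for HNRNPA1P10 is not a sure level of RNA from that locus. The same holds for HNRNPA1L2, which is 98.4% identical to HNRNPA1.

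**Figure D3:**
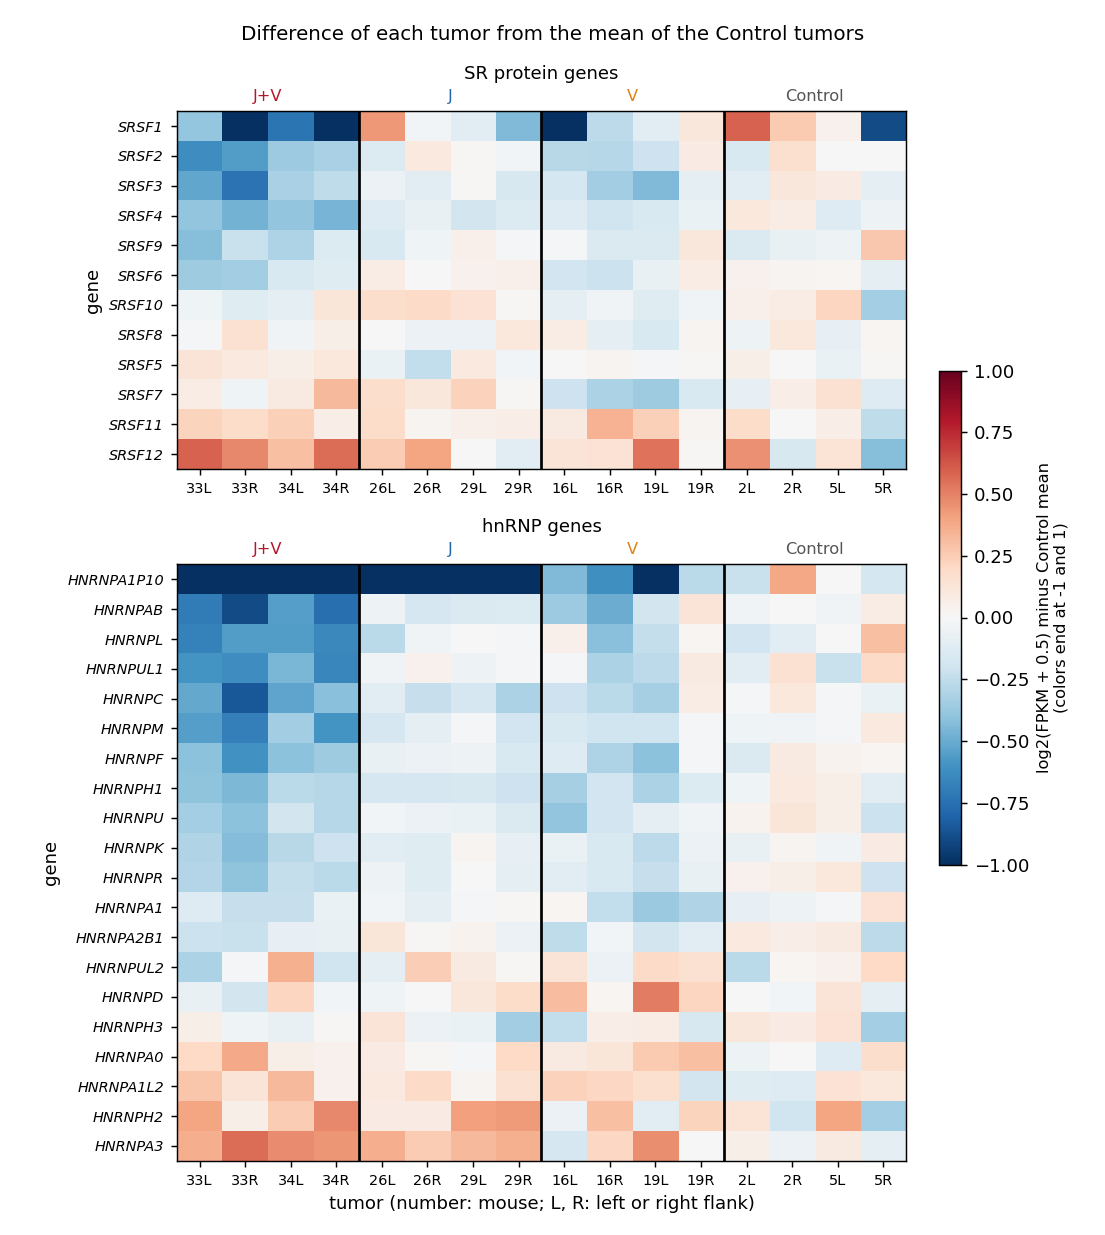
Difference of each tumor from the mean of the 4 Control tumors in log2(FPKM + 0.5), for the 12 SR genes (top) and the 20 hnRNP genes that passed the filter (bottom), with genes ordered by their J+V fold change and colors ending at -1 and 1. The 4 J+V columns are blue from HNRNPA1P10 down to HNRNPR, SRSF1 is uneven within every group, and HNRNPA3 is red in J+V and J.

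Neither drug alone gave a member past the threshold. Against the same 4 Control tumors, 0 SR and 0 hnRNP genes passed in J or in V, as did 0% of all genes, and at an unadjusted p below 0.05 in limma 1 SR and 3 hnRNP genes did so in J (8.49% of all genes) and 3 SR and 7 hnRNP genes in V (16.1%). All J tumors lay below all Control tumors for 4 hnRNP genes and above them for 1 (1.66% and 3.33% of all genes), and all V tumors lay below them for 1 SR and 2 hnRNP genes and above them for 0 (1.99% and 1.87%). Side by side, HNRNPAB stood at -0.72 in J+V, -0.13 in J and -0.23 in V, and HNRNPM at -0.55 in J+V, -0.12 in J and -0.14 in V. SRSF2 was at -0.47 in J+V, -0.01 in J and -0.17 in V, and SRSF4 at -0.43 in J+V, -0.13 in J and -0.14 in V. Whether J+V departed from both single-drug differences added together was tested for every gene, and 0 of 13426 passed in limma (12.6% at an unadjusted p below 0.05). Among members, 5 hnRNP and 0 SR genes had an unadjusted p below 0.05 for the departure, with HNRNPUL1 at -0.45 (SE 0.138, adjusted p = 0.212), HNRNPL at -0.38 (SE 0.158, adjusted p = 0.332) and HNRNPAB at -0.37 (SE 0.150, adjusted p = 0.325). A difference larger than the sum of both drugs was thus not detectable for any member in these 16 tumors.

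Adding Vemurafenib to JQ1 was read from J+V against J. Here 5 SR genes (SRSF1, SRSF2, SRSF3, SRSF4 and SRSF6) and 8 hnRNP genes (HNRNPAB, HNRNPC, HNRNPF, HNRNPK, HNRNPL, HNRNPM, HNRNPR and HNRNPUL1) were lower and 0 were higher, beside 18.4% of all genes lower and 8.67% higher (27.0% in either direction). The tumors did not overlap for 4 SR and 11 hnRNP genes on the lower side (22.2% of all genes) and 1 hnRNP gene on the higher (12.9%), and 0 members passed the thresholds of the study (2.70%). The log2 fold changes were -0.60 for HNRNPAB (SE 0.106, adjusted p = 0.00137), -0.57 for HNRNPUL1 (SE 0.0975, adjusted p = 0.0011), -0.43 for HNRNPM (SE 0.0723, adjusted p = 0.000995) and -0.45 for SRSF2 (SE 0.0957, adjusted p = 0.0037). HNRNPAB, HNRNPM and HNRNPUL1 kept the call in each of the 37 alternative fits. SRSF1 was at the edge (adjusted p = 0.0496) and lost it without any 1 of 33R, 34L, 34R, 26L, 26R, 29L, 16R, 19L or 5L, at 0.0541 to 0.13, with no mouse block (0.0614) and with means per mouse (0.108). HNRNPK lost it without 33L, 33R, 29L, 29R or 5L (0.0531 to 0.0876), HNRNPR without 33R, 29L or 5L (0.0601 to 0.0704), and HNRNPC without 5L (0.0547). Leaving out a whole mouse ended more calls: SRSF3, SRSF6, HNRNPC, HNRNPF, HNRNPK and HNRNPR each lost theirs without mouse 33, 26 or 29 (0.0518 to 0.215), SRSF2 without mouse 33 (0.0619) and HNRNPL without mouse 29 (0.0693). With means per mouse SRSF3 (0.0629), SRSF4 (0.0502), SRSF6 (0.101), HNRNPK (0.108) and HNRNPR (0.0777) had no call.

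Adding JQ1 to Vemurafenib was read from J+V against V, where fewer members passed. SRSF4 was the 1 SR gene lower (-0.29, SE 0.0602, adjusted p = 0.00679) and SRSF7 the 1 higher, beside 8.31% of all genes lower and 4.99% higher (13.3% in either direction). The tumors did not overlap for 2 SR and 6 hnRNP genes on the lower side (9.15% of all genes) and 2 SR genes on the higher (6.55%), and 0 members passed the thresholds of the study (1.30%). Lower hnRNP genes were HNRNPAB (-0.50), HNRNPUL1 (-0.46), HNRNPL (-0.46), HNRNPM (-0.40) and HNRNPC (-0.39), with adjusted p-values of 0.00374 to 0.0183, and HNRNPA3 was higher by 0.33 (adjusted p = 0.0417). The call on SRSF4 was lost without mouse 33 (0.0668), without mouse 19 (0.0706) and with means per mouse (0.0906). HNRNPA3 is the weakest of these, since its call was lost without any 1 of 11 tumors. HNRNPC lost its call without 33R (0.0513), 19R (0.0753) or 5L (0.0792), and HNRNPL without 19R (0.0659) or 5L (0.0679). Without mouse 33 every one of the 5 lower hnRNP genes had an adjusted p above 0.05 in limma (0.0543 to 0.149). Without mouse 19, a V mouse, HNRNPAB (0.0756), HNRNPC (0.0943), HNRNPL (0.104) and HNRNPUL1 (0.0587) lost the call, and HNRNPM kept it. With means per mouse 4 of the 5 had no call (0.0544 to 0.0828), and HNRNPUL1 kept its call. Between the single drugs, J against V, 0 members passed (0.283% of all genes), and SRSF7 was nearest, higher in all 4 J than in all 4 V tumors by 0.39 (SE 0.0843, adjusted p = 0.0709). J and V tumors did not overlap for 0 members on the lower side (2.66% of all genes) and 2 SR genes on the higher (4.77%).

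Ratios of relatives within a tumor do not depend on how libraries are scaled, apart from the pseudocount. Of 7 such ratios set out, 6 were computed, and each was compared by a two-sided exact permutation test over 70 splits, whose smallest p is 0.02857. SRSF3 stood at 1.38, 1.28, 1.55 and 1.39 times SRSF7 in J+V tumors, against 2.05, 2.15, 1.97 and 2.13 times in Control tumors. The groups did not overlap, and the log2 ratio differed by -0.57 (exact p = 0.02857, 0.0857 after Benjamini-Hochberg adjustment over the 6 ratios). J tumors lay between them at 1.76 to 1.84, and V tumors, at 1.96 to 2.15, overlapped the Control tumors. HNRNPH1 stood at 10.5, 12.8, 12.7 and 10.6 times HNRNPH2 in J+V tumors, against 16.1, 22.6, 14.3 and 21.5 times in Control tumors. These did not overlap either, with a log2 difference of -0.65 (exact p = 0.02857, adjusted 0.0857). HNRNPH2 lies within the read-through gene RPL36A-HNRNPH2 over 4076 bases. SRSF1 over HNRNPA1, the textbook antagonists, differed by -0.77 with overlapping groups (exact p = 0.114, adjusted 0.171). SRSF1 over SRSF9 differed by -0.66 (adjusted exact p = 0.274), SRSF4 over SRSF6 by -0.19 (0.171) and HNRNPA1 over HNRNPA2B1 by -0.02 (0.943). No ratio passed after adjustment.

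**Figure D4:**
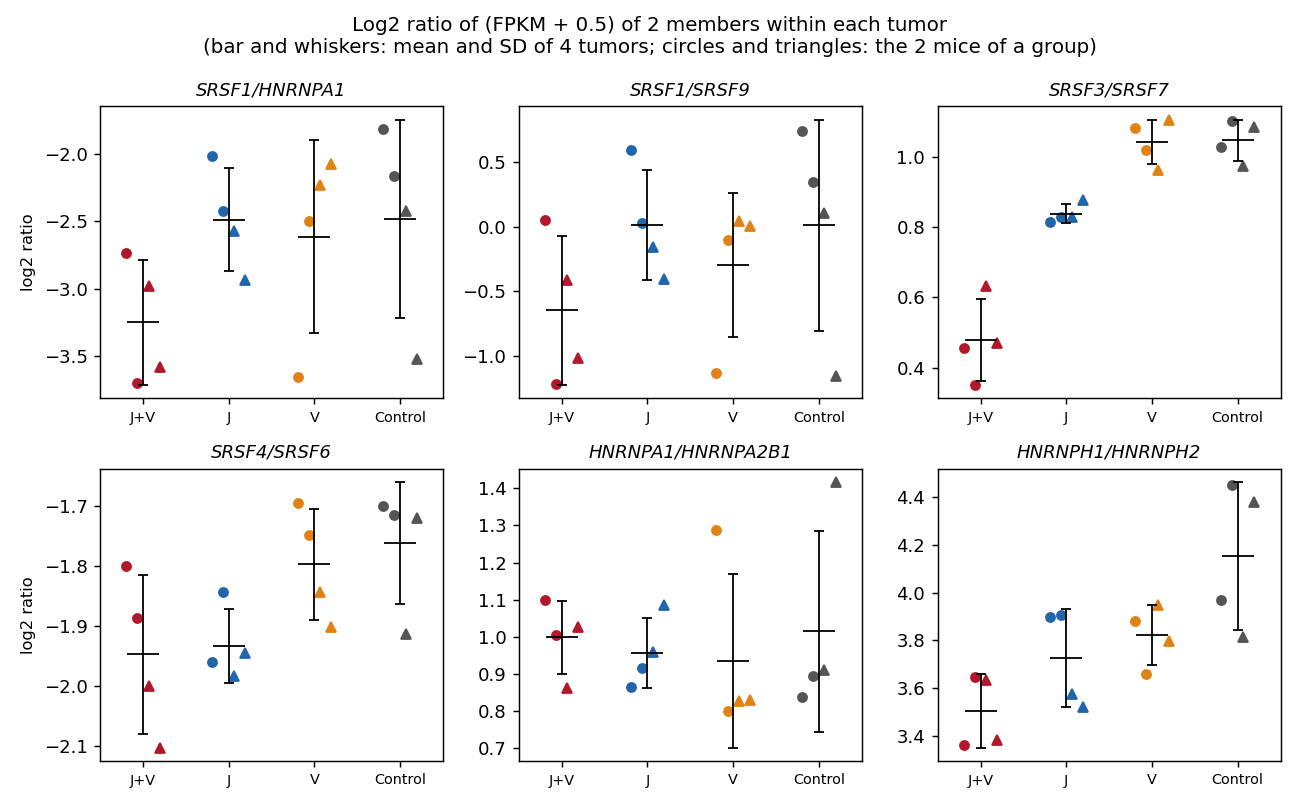
Log2 ratio of (FPKM + 0.5) of 2 members within each tumor for the 6 pairs, by group, with circles and triangles for the 2 mice of a group and the mean and SD of 4 tumors. J+V tumors lie below all Control tumors for SRSF3/SRSF7 and HNRNPH1/HNRNPH2 and overlap them in the other pairs.

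Other genes of the splicing pathway were read from 5 lists in J+V against Control. The core spliceosome stood out by count, with 23 of 35 genes lower (65.7%) and 0 higher and a median log2 fold change of -0.382, beside 20.5% lower over all genes. SNRPB, an Sm ring protein, averaged 57.4 ± 6.62 FPKM in J+V tumors and 117.5 ± 20.1 FPKM in Control tumors (SD, n = 4 each) and fell by 1.02 (adjusted p = 0.000516). The Sm proteins SNRPF and SNRPG fell by 0.84 (adjusted p = 0.000121) and 0.83 (adjusted p = 0.00184). Against J, 24 of 35 were lower (68.6%, beside 18.4% of all genes), and against V 5 were lower (14.3%, beside 8.31%) and 1 was higher (2.86%, beside 4.99%). Among 26 other RNA-binding splicing regulators 8 were lower (30.8%) and 4 higher (15.4%, median -0.043). PTBP1, the polypyrimidine tract repressor, averaged 19.8 ± 1.27 FPKM in J+V tumors and 36.5 ± 4.53 FPKM in Control tumors and fell by 0.86 (adjusted p = 0.000101). KHSRP fell by 0.74 (adjusted p = 0.00048) and RBM10 by 0.48 (adjusted p = 0.00504).

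On the lower side, the 3 remaining lists were near the 20.5% of all genes (16.6% were higher). Of SR-related proteins, 4 of 22 were lower and 4 higher (18.2% each, median 0.052). RNPS1, a part of the exon junction complex machinery, fell by 0.62 (adjusted p = 9.5e-05), while ZRANB2 rose by 0.52 (adjusted p = 0.00518) and LUC7L3, a U1 snRNP-associated protein, by 0.47 (adjusted p = 0.0285). Under TPM the calls on ZRANB2 (adjusted p = 0.158) and LUC7L3 (0.31) were lost, and that on LUC7L3 was also lost without 33L (0.064), 33R (0.0637) or 5R (0.0772). Of the kinases that phosphorylate SR proteins and their importer, 9 of 10 passed the filter, 2 were lower (22.2%) and 1 was higher (11.1%, median -0.013). SRPK1, the cytoplasmic SR protein kinase, fell by 0.37 (adjusted p = 0.000917) and TNPO3, the importer, by 0.35 (adjusted p = 0.00048), while CLK4, a nuclear kinase, rose by 0.33 (adjusted p = 0.0149; 0.58 under TPM). In nonsense-mediated decay 2 of 10 genes were lower and 0 higher, UPF1 by 0.37 (adjusted p = 0.0229) and SMG9 by 0.35 (adjusted p = 0.0243), with a median of -0.029. UPF1 lost the call without 34R (0.08) or 5R (0.0642), and SMG9 without 33L (0.0541), 5L (0.0648) or 5R (0.0711), and both lost it with means per mouse (0.0839 and 0.0656).

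**Figure D5:**
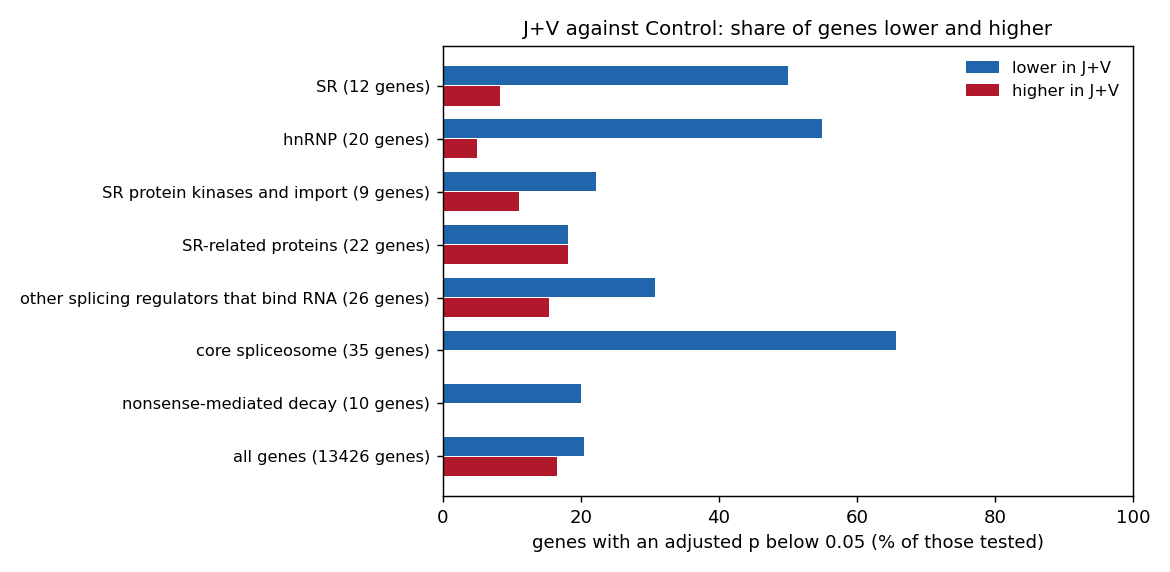
Share of genes with an adjusted p below 0.05 in J+V against Control, lower and higher, as bars from 0, for both families, the 5 other splicing lists and all 13426 genes tested. The core spliceosome (65.7% lower), hnRNP (55.0%) and SR genes (6 of 12) exceed the 20.5% of all genes, and SR-related proteins have 18.2% in each direction.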

How the data were processed

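The authors deposited 1 table of FPKM values, which they had made from the reads of 16 tumors, with 23260 gene symbols. The labels name bcl2fastq, TopHat and Cufflinks, without versions, and build hg19; for the gene annotation, the use of strand and any removal of mouse reads, details were not given in the sources used here. FPKM hold no read counts, so the depth per tumor is unknown, and no per-sample column was left out (0).

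Genes with at least 1 FPKM in at least 4 tumors were kept (13426), 0.5 was added and log2 taken. Fold changes are on this log2(FPKM + 0.5) scale, which understates changes of low genes. The fit used limma 3.58.1 under R 4.3.3 (mean-variance trend, a term per group, mouse as a block with correlation -0.067, 12 residual degrees of freedom), and p-values were Benjamini-Hochberg adjusted over all genes kept. Each adjusted p of a gene is from limma. The study states DESeq on read counts, which FPKM do not allow. The fit was run on simulated data with known changes. These values were drawn independently for each tumor, so the run did not test how tumors sharing a mouse affect the p-values. Ratios used an exact permutation test (SciPy 1.17.1); that of HNRNPL to HNRNPLL was left out because the symbol HNRNPLL was not used here. Every member is accounted for, with tumor values for those with an adjusted p below 0.05 (up to 10 per family), for SRSF1, SRSF2, SRSF3, HNRNPA1, HNRNPA2B1 and HNRNPC, and for SRSF7, which was added after its values were seen, as were HNRNPD, HNRNPH2 and HNRNPH3 as contrasts. From other lists the 3 largest changes past the threshold are named. Members, lists and tests were chosen with earlier results of these data known. Positions are from GENCODE 44 lifted to GRCh37, copies were aligned with blastn 2.17.0, and promoters are from RefSeq (GRCh38.p14). The alternatives were pseudocounts of 0.1 and 1, a mean FPKM of at least 5, no filter, 4 scalings, no mouse block, means per mouse, only the groups compared, robust moderation, a term for flank (added after seeing the data), the thresholds of the study, and leaving out each tumor or mouse.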

Additional observations from a re-analysis of the deposited data

Results flagged for a closer look

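Within each group of 4 tumors, the highest or lowest tumor was compared with the rest for the 32 members kept. A tumor was taken as standing apart where its gap to the nearest other, as a share of the group's range, exceeded Dixon's critical value. This held for 5 of 128 gene and group combinations, where chance alone gives about 1 in 20, or 6.4. Control tumor 5R accounted for 3 of them, with HNRNPA2B1 at 218 FPKM (other Control tumors 274 to 279), HNRNPH3 at 15.8 FPKM (21.4 to 22.3) and HNRNPM at 75.0 FPKM (68.2 to 69.2). J tumor 29R had HNRNPH1 at 274 FPKM, where the other J tumors had 282 to 283, and J tumor 26L had HNRNPL at 78.5 FPKM, where the others had 92.5 to 94.5.

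For SRSF7 and SRSF10, every J tumor lay on one side of the Control mean and every V tumor on the other. Only members were searched for this pattern, so the share of all genes with it is not known. SRSF7 stood at 0.132 in J and -0.258 in V relative to Control on the log2 scale, a difference of 0.39 between J and V (limma, adjusted p = 0.0709). SRSF10, which turns into a splicing repressor when dephosphorylated, stood at 0.13 in J and -0.074 in V, a difference of 0.20 (adjusted p = 0.411). Neither difference passed the threshold.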

How the results depend on the processing

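Of the 19 members called in J+V against Control, 11 kept the call in every alternative fit (SRSF2, SRSF3 and SRSF4, and 8 of 12 hnRNP genes). Of the 13 members not called, 10 changed sign in at least 1 alternative and 6 were called in at least 1. No paired analysis was possible because each mouse belongs to 1 group and the labels number no replicates across groups. Flank is shared by all groups, and a term for it, chosen after seeing the data, changed 1 call of a member, HNRNPA3 in J+V against V (adjusted p = 0.0525 in limma, 0 hnRNP genes higher). Depth is unknown from FPKM, each group holds only 2 mice, and gene-level values do not separate isoforms. The cause of the changes below was not tested.

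Under the thresholds of the study (fold above 2, p below 0.01, FDR below 0.1), 0 SR and 1 hnRNP gene (HNRNPA1P10) were lower and 0 were higher in J+V against Control, and 0 members passed in J+V against J or V. SR members higher than Control numbered 0 with no filter, with a mean FPKM of at least 5, under TPM, with means per mouse and with only the groups compared. With no filter the hnRNP median was -0.165, and a mean FPKM of at least 5 gave an SR median of -0.245 and 2 SR genes lower than in V. Under TPM the medians were -0.356 (SR) and -0.521 (hnRNP) with 0 hnRNP genes higher, and against V 3 SR and 8 hnRNP genes were lower and 0 higher. Quantile normalization gave medians of -0.004 and -0.143, with 3 SR genes lower and 3 higher than Control, and 2 SR and 5 hnRNP genes lower and 1 SR gene higher than J. Upper quartile scaling also gave 1 SR gene higher than J. SR genes lower than Control numbered 3 when scaled without small RNAs, with means per mouse and with only the groups compared. Means per mouse left 1 SR gene lower than J, and 0 SR and 1 hnRNP gene lower and 0 higher than V. HNRNPA3 was not called against V (0 hnRNP genes higher) with no filter, scaled without small RNAs, with no mouse block and with only the groups compared, which left 3 hnRNP genes lower than V and made 1 SR gene higher in J than in V.

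Signs reversed under TPM for HNRNPA0 (-0.04), HNRNPA1L2 (-0.01), SRSF5 (-0.12), SRSF7 (-0.10), SRSF8 (-0.17) and SRSF11 (-0.04). Scaled without small RNAs, HNRNPD (0.02), HNRNPH3 (0.03) and SRSF10 (0.01) reversed. Upper quartile scaling reversed HNRNPD (0.03), HNRNPH3 (0.04), SRSF10 (0.02) and HNRNPUL2 (0.00), and quantile normalization HNRNPD (0.09), HNRNPH3 (0.05) and SRSF10 (0.10).

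Leaving out each tumor or mouse, the J+V against Control counts ran from 3 to 6 SR genes lower and 0 to 2 higher, and from 9 to 12 hnRNP genes lower and 1 to 2 higher, with medians of -0.204 to -0.063 (SR) and -0.358 to -0.238 (hnRNP). The lowest SR count came without tumor 5L and without mouse 33. Against J, 1 to 6 SR genes were lower, 0 to 1 higher, and 3 to 10 hnRNP genes lower. Against V, 0 to 3 SR genes were lower and 0 to 1 higher, and 0 to 7 hnRNP genes lower and 0 to 1 higher. In J against V 0 to 1 SR genes were higher. In J against Control 0 to 1 hnRNP genes were lower, with 1 only without tumor 19L, and in V against Control 0 to 1, with 1 only without 5R. Across zero ran the values of HNRNPD (-0.13 to 0.09), HNRNPH3 (-0.13 to 0.09), HNRNPUL2 (-0.18 to 0.08) and SRSF10 (-0.15 to 0.05), and the HNRNPA1/HNRNPA2B1 log2 ratio (-0.08 to 0.12).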
